A study of Mus musculus with 12 samples.

Results

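The mRNA of 5 sialyltransferases was followed in mouse dendritic cells: St3gal1 (NCBI gene 20442), St3gal2 (20444), St6gal1 (20440), St8sia4 (20452) and St8sia6 (241230). They were chosen by name from a glycosylation panel of 84 genes measured by quantitative real-time PCR, and the panel holds 3 other sialyltransferases that are not described as members. Sialyltransferases add sialic acid to the ends of the sugar chains of glycoproteins and glycolipids in the Golgi apparatus, and each enzyme makes 1 kind of linkage. Alpha-2,3 linkages cap galactose on many chains, alpha-2,6 linkages cap galactose mainly on N-glycans, and alpha-2,8 linkages join sialic acid to sialic acid. On immune cells these caps form the ligands of Siglec receptors and mask galactose from other lectins.

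The study had 2 settings with 2 groups each. Type 1 dendritic cells (DC1), the subset that cross-presents antigen to CD8 T cells, were sorted by flow cytometry from subcutaneous MCA101 fibrosarcomas of mice and, as controls, from spleen. The immortalized mouse line DC2.4 was stimulated with TGF-beta for 4 days or left unstimulated. Its labels conflict on the dose, with 2.5 ng/ml in the growth text and 10 ng/ml in the treatment text. The tumor cells carry the tag CD103 and the splenic cells the tag XCR-1, so that tissue and tag change together and cannot be told apart. Mouse strain, age and any pooling of animals are not given in the sources used here. The panel measures none of the lineage markers listed for DC1, macrophages, lymphocytes or fibroblasts, so the labelled cell type was not checked against markers.

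Each group has 3 deposited files, but one of them, the third file, equals a constant times the mean of the other 2 in nearly all wells. The values below therefore come from 2 measured samples per group, 8 in all. The values of tumor replicate 2 stood 1 well early on the plate map and were used after a move by 1 well. The labels do not say whether the samples came from separate cultures or animals, so the p-values refer to the spread among these samples alone, and that spread may be technical. The threshold cycle (Ct) is the PCR cycle at which a well's fluorescence passes a set line, and a lower Ct means more template. The relative level of a gene is its Ct subtracted from the average Ct of 5 reference wells, on a log2 scale, so that a value higher by 1 means a doubled level. Between 64 and 76 of the 84 genes were detected under Ct 35 in a sample. The mean Ct of the reference wells was 23.9 and 22.4 in tumor DC1, 22.3 and 24.3 in splenic DC1, 22.1 and 17.0 in TGF-beta-treated DC2.4, and 20.6 and 17.0 in unstimulated DC2.4. In such bulk samples, fewer cells expressing a gene and less of its RNA per cell cannot be told apart.

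The DC1 comparison carries a limit on direction. In the authors' deposited table of fold changes, the tumor over splenic ratio of St3gal1 was 1.70, 1.73 and 1.72 in its 3 columns, whereas the sample files as labelled gave a lower level in tumor cells. St6gal1 (0.484, 0.455 and 0.468) and St8sia4 (0.313, 0.247 and 0.236) were also turned round in the authors' deposited table, where the sample files gave a higher mean in tumor cells. For St3gal2 (0.836, 0.789 and 0.788) and St8sia6 (1.97, 6.80 and 6.94) the authors' deposited table had the same sign as the files. That table is normalized to Actb, and with the Actb well alone the sample files gave a tumor minus splenic log2 difference of -2.07 for St3gal1, -0.99 for St3gal2 and -0.13 for St6gal1. With that well St3gal1 was opposite in sign to the table, whereas St3gal2 and St6gal1 had the same sign as the table. These signs depend on the reference wells, whereas the difference of 2 members within a sample does not. The tumor over splenic change of St3gal1 over St3gal2 was 1.03, 1.13 and 1.13 in the table and -1.08 in the sample files. For St3gal1 over St6gal1 it was 1.81, 1.92 and 1.88 against -1.94. For St3gal2 over St6gal1 it was 0.79, 0.80 and 0.75 against -0.86. All 3 were thus opposite in sign. The St8sia4 difference was not fitted with the Actb well alone. Every tumor and splenic value below follows the labels of the sample files.

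St3gal1 adds alpha-2,3-linked sialic acid to the galactose of core 1 O-glycans. Its relative level was -5.16 and -5.26 in tumor DC1, -3.79 and -4.34 in splenic DC1, -6.90 and -6.44 in TGF-beta-treated DC2.4 and -6.98 and -6.30 in unstimulated DC2.4. All 4 DC1 samples lay above all 4 DC2.4 samples, the splenic samples were the highest, and the 2 DC2.4 groups overlapped. This order holds for the mean of the 5 reference wells. Against the Actb well alone, the St3gal1 Ct stood 8.13 cycles later in tumor replicate 1. That lay among the DC2.4 values of 8.22 and 7.71 with TGF-beta and 8.41 and 7.19 without. The group means, with SD and n = 2 each, were -5.21 ± 0.070 in tumor DC1, -4.06 ± 0.39 in splenic DC1, -6.67 ± 0.32 with TGF-beta and -6.64 ± 0.48 without stimulation.

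St3gal1 was higher in splenic DC1 than in unstimulated DC2.4, by 2.57 ± 0.54 (SE) on the log2 scale or 5.95-fold, with a 95% interval of 1.33 to 3.82 and an adjusted p of 0.019 (limma, Benjamini-Hochberg over 64 genes). It was the only one of the 3 members tested there to pass the threshold of 0.05, where 9.38% of the panel genes tested did. It was also the only one with an unadjusted p under 0.05, against 25% of the panel, and the only one whose groups did not overlap, against 56.2%. Its p ranked 4 among the 64 genes. Over 11 other choices of reference wells the difference lay between 1.53 and 3.09 and passed in 9 of them. It did not pass with the Actb well alone (adjusted p = 0.18) or the B2m well alone (adjusted p = 0.75). Without splenic replicate 1 the difference was 2.29 (adjusted p = 0.053), and it also missed the threshold without unstimulated replicate 1 (2.23, adjusted p = 0.13) or replicate 2 (2.91, adjusted p = 0.074). Source, culture and sorting all differ between sorted DC1 and the cell line and cannot be told apart.

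Between tumor and splenic DC1, St3gal1 differed by -1.15 ± 0.62 (tumor minus splenic, 95% interval -2.62 to 0.33, adjusted p = 0.34 by limma over 62 genes). The difference did not pass the test, although both tumor samples lay below both splenic samples. It was the only one of the 3 members tested whose groups did not overlap, where 48.4% of the 62 panel genes did not overlap. By limma, none of the 3 passed, where 8.06% of the panel passed, and none had an unadjusted p under 0.05, where 21% of the panel had one. Tumor DC1 lay above TGF-beta-treated DC2.4 by 1.46 ± 0.52, or 2.75-fold (adjusted p = 0.083 over 68 genes), which also missed the threshold. TGF-beta itself left a difference of -0.03 ± 0.50 from unstimulated cells, with an interval of -1.45 to 1.38.

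St3gal2, the other alpha-2,3 enzyme, acts on the same core 1 structure and on gangliosides. Its relative level was -8.06 and -8.59 in tumor DC1, -7.44 and -9.07 in splenic DC1, -6.42 and -7.97 in TGF-beta-treated DC2.4 and -6.89 and -8.11 in unstimulated DC2.4. The splenic samples spanned both tumor samples, and the TGF-beta and unstimulated samples overlapped. The 2 samples of a group differed by 1.63 in splenic DC1, 1.54 with TGF-beta, 1.22 without stimulation and 0.53 in tumor DC1. Group means were -8.32 ± 0.37 in tumor DC1, -8.26 ± 1.15 in splenic DC1, -7.19 ± 1.09 with TGF-beta and -7.50 ± 0.86 without stimulation (SD, n = 2 each).

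No comparison of St3gal2 passed the test. The difference was -0.07 ± 0.76 between tumor and splenic DC1 (95% interval -1.87 to 1.73, adjusted p = 0.98) and 0.31 ± 0.82 between TGF-beta-treated and unstimulated DC2.4 (interval -2.02 to 2.64, adjusted p = 0.95). Between the DC1 groups the interval still allows a change of 3-fold in either direction. Splenic DC1 differed from unstimulated DC2.4 by -0.75 ± 0.81 (adjusted p = 0.51). Both tumor DC1 samples lay below both TGF-beta samples, with a difference of -1.13 ± 0.83 and an adjusted p of 0.34.

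St6gal1 adds alpha-2,6-linked sialic acid to N-glycan galactose and so makes the ligand of CD22, a Siglec of B cells. Its relative level was -5.04 and -5.28 in tumor DC1, -4.98 and -6.91 in splenic DC1, -6.12 and -6.99 in TGF-beta-treated DC2.4 and -5.85 and -6.88 in unstimulated DC2.4. The splenic samples differed by 1.93, and 1 of them lay above both tumor samples and the other below. The tumor samples differed by 0.24, and both lay above all 4 DC2.4 samples.

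The mean of St6gal1 was -5.16 ± 0.17 in tumor DC1, -5.95 ± 1.37 in splenic DC1, -6.56 ± 0.62 with TGF-beta and -6.36 ± 0.73 without stimulation (SD, n = 2 each). Tumor minus splenic came to 0.79 ± 0.80, or 1.73-fold, which did not pass (95% interval -1.10 to 2.69, adjusted p = 0.70). Tumor DC1 minus TGF-beta-treated DC2.4 came to 1.40 ± 0.78 (adjusted p = 0.23). In that comparison 3 of the 5 members, St3gal1, St3gal2 and St6gal1, had groups that did not overlap, against 73.5% of the panel genes tested. By limma, none of the 5 passed there, where 26.5% of the panel did. St3gal1 alone had an unadjusted p under 0.05, where 35.3% of the panel had one. TGF-beta minus unstimulated was -0.19 ± 0.63 (interval -1.99 to 1.60), and splenic DC1 minus unstimulated DC2.4 was 0.41 ± 0.76, neither past the threshold.

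St8sia4 is a polysialyltransferase, which builds long alpha-2,8 chains on carriers such as the chemokine receptor CCR7 of dendritic cells. Its relative level was -3.42 and -3.46 in tumor DC1, -3.95 in the usable splenic sample, -2.83 and -4.19 in TGF-beta-treated DC2.4 and -4.58 and -4.47 in unstimulated DC2.4. Both TGF-beta samples lay above both unstimulated samples, and the tumor samples fell between the 2 TGF-beta samples. Against the Actb well alone the 2 DC2.4 groups overlapped, with the St8sia4 Ct 4.15 and 5.46 cycles later with TGF-beta and 6.02 and 5.37 without. Splenic replicate 1 held a Ct of exactly 27.0, a whole number in a stretch of wells with whole or repeated values, so St8sia4 was not tested against splenic DC1.

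The TGF-beta difference of St8sia4 was 1.02 ± 0.64, or 2.03-fold (95% interval -0.79 to 2.82, adjusted p = 0.62 by limma over 69 genes), and did not pass. It was the only one of the 5 members whose DC2.4 groups did not overlap, where 39.1% of the panel genes tested did not overlap. By limma, 0 of the 5 members and 0% of the panel passed in that comparison, while 0 members and 15.9% of the panel had an unadjusted p under 0.05. The 2 TGF-beta samples differed from each other by 1.36, more than the difference between the group means of -3.51 ± 0.96 with TGF-beta and -4.53 ± 0.077 without (SD, n = 2 each). Its sign was positive under each of the 22 alternatives tried, and its size lay between 0.21 and 1.70. The authors' deposited table gives TGF-beta over untreated ratios of 3.37, 2.11 and 2.29 for St8sia4. Tumor DC1 minus TGF-beta-treated DC2.4 was 0.07 ± 0.63 (adjusted p = 0.96). With the doubtful well used as deposited, tumor minus splenic was 0.88 ± 0.65 (adjusted p = 0.50), and without splenic replicate 1 it was 0.51 ± 0.68 (adjusted p = 0.62).

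St8sia6 makes short alpha-2,8 structures, mainly on O-glycans, which in mouse are ligands of Siglec-E. It was read by Ct because several wells were late. The Ct was 31.5 and 31.2 in tumor DC1, 39.9 in splenic replicate 2, 29.3 and 34.2 in TGF-beta-treated DC2.4 and 37.2 and 38.7 in unstimulated DC2.4. Both tumor samples and both TGF-beta samples were under 35, whereas splenic replicate 2 and both unstimulated samples were over it. Splenic replicate 1 held 28.3, the same value to 4 decimals as the St8sia4 well of splenic replicate 2, and was not used. In the remaining, computed splenic file the St8sia6 value equals what replicate 1 and a blank replicate 2 counted as 0 would give. The late value of splenic replicate 2 is therefore in doubt as well.

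With late wells held at Ct 35, the level of St8sia6 was -7.59 and -8.79 in tumor DC1 and at most -10.68 in splenic replicate 2. It was -7.27 and -17.19 in TGF-beta-treated DC2.4, against at most -14.37 and -18.04 in unstimulated DC2.4. The second TGF-beta sample lay between the 2 upper bounds of the unstimulated samples, so those groups could not be ordered. The TGF-beta difference was 3.98 ± 3.87, with an interval of -7.04 to 14.99 and an adjusted p of 0.82. Since both unstimulated wells were held at 35, this mean is a lower bound, and it was 8.98 with late wells set to 40 (adjusted p = 0.38) and 6.79 in the deposited series matrix (adjusted p = 0.54). It rested on 1 sample: it was 8.94 (adjusted p = 9e-04) without TGF-beta replicate 2 and -0.99 without TGF-beta replicate 1. Tumor DC1 minus TGF-beta-treated DC2.4 was 4.04 ± 3.14 (adjusted p = 0.36), 9.0 without TGF-beta replicate 1 (adjusted p = 0.011) and -0.93 without TGF-beta replicate 2. Without splenic replicate 1, tumor minus splenic was 2.48, a bound against a single late well. That fit gave the same SE of 0.68 for St8sia6, St8sia4 and Neu2, a spread shared over panel genes rather than that of St8sia6. With the doubtful well used as deposited, tumor minus splenic was 0.13 ± 1.47 (adjusted p = 0.98). St8sia6 broke the third-file relation in splenic DC1, for which other genes were left out. It was kept in these 2 fits only because it is a member. The authors' deposited table gives St8sia6 TGF-beta over untreated ratios of 137, 86.1 and 69.5, to which a lower bound cannot be compared in size.

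**Figure D1:**
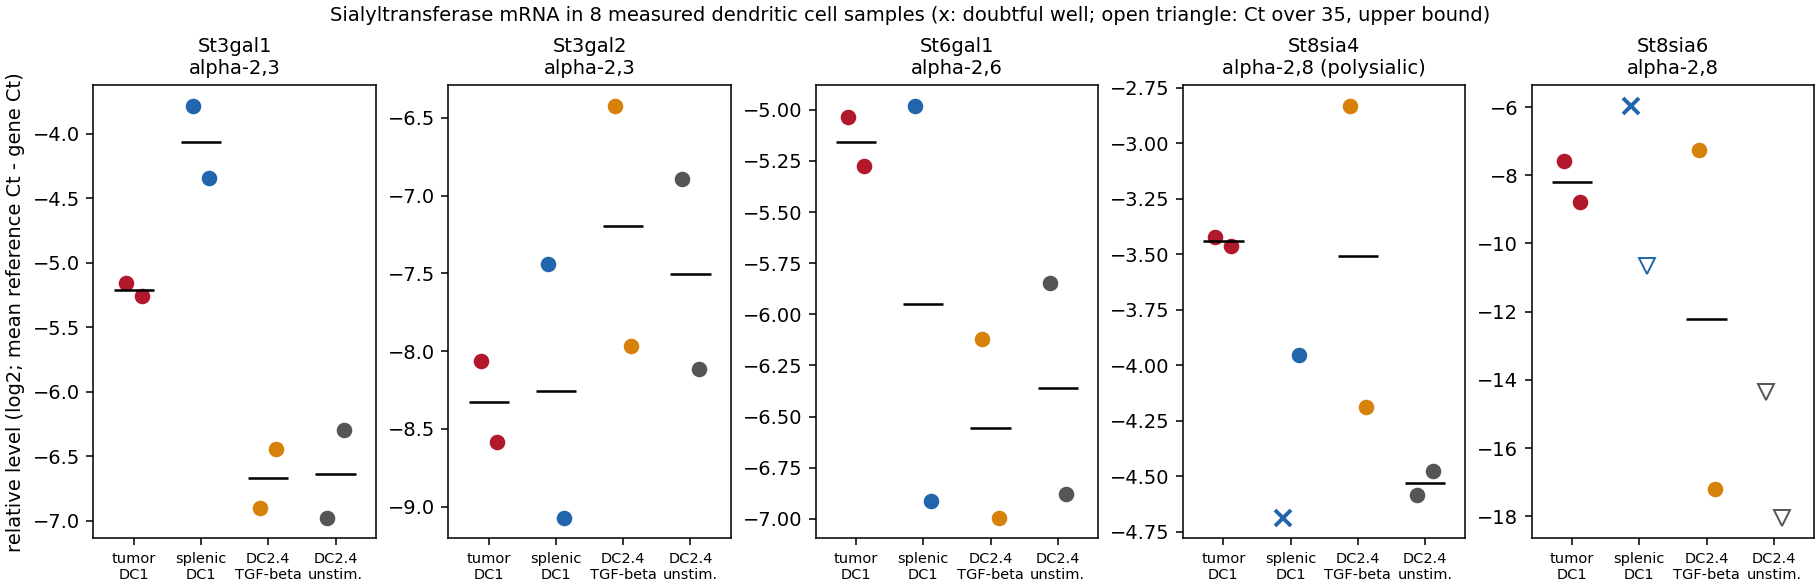
Relative level (log2, mean reference Ct minus gene Ct) of the 5 sialyltransferases in the 8 measured samples, each panel on its own scale. Filled points are samples and bars are group means where both samples were usable and neither was late. The cross marks a doubtful splenic well and open triangles are upper bounds of wells over Ct 35. With the mean of the 5 reference wells, St3gal1 separates DC1 from DC2.4 samples, and St8sia4 lies higher in both TGF-beta samples than in both unstimulated samples. Neither order holds with the Actb well alone.

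**Figure D2:**
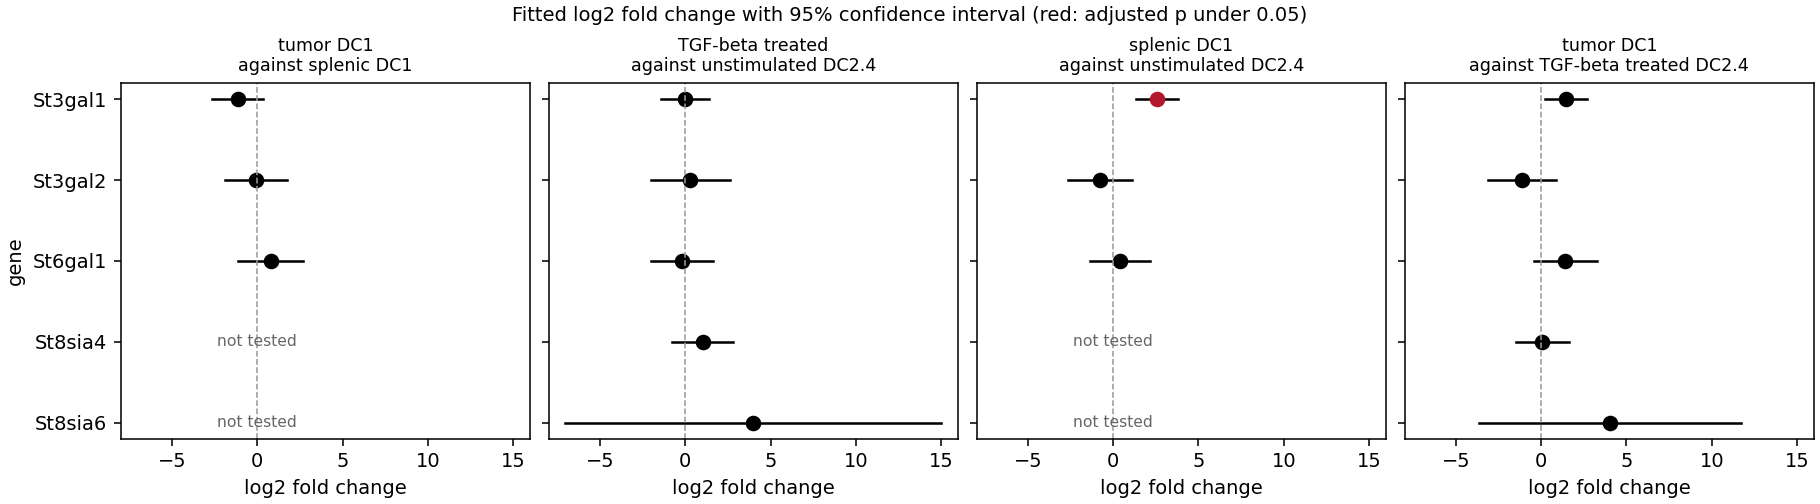
Fitted log2 fold change of each sialyltransferase (point) with its 95% interval (line) in 4 comparisons, the first-named group over the second. Only St3gal1 in splenic DC1 against unstimulated DC2.4 passed the threshold, at 2.57. The intervals of St8sia6 are the widest.

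The test of whether the tumor-spleen difference differed from the TGF-beta difference was made for the 3 members with usable wells. It gave -1.11 ± 0.82 for St3gal1 (adjusted p = 0.50), -0.38 ± 1.10 for St3gal2 (adjusted p = 0.87) and 0.99 ± 1.05 for St6gal1 (adjusted p = 0.68, limma over 61 genes). None of the 3 passed, where 16.4% of the panel did, and none had an unadjusted p under 0.05, where 24.6% of the panel had one.

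The reference wells themselves moved between groups. Each was set against the mean of the other 4. Tumor minus splenic DC1 was -2.46 for the Gapdh well, 1.15 for Actb and 1.16 for Gusb, and tumor DC1 minus TGF-beta-treated DC2.4 was -3.47 for Gapdh and 2.30 for Actb. TGF-beta minus unstimulated stayed between -0.64 for B2m and 0.36 for Gapdh. Only the Actb well is named by the files, and the other names follow the manufacturer's usual layout.

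These shifts moved the sign of several member differences. Tumor minus splenic St3gal1 lay between -2.07 and 0.83 over the 11 choices of reference wells, St3gal2 between -0.99 and 1.90, and St6gal1 between -0.13 and 2.76. In tumor DC1 against TGF-beta-treated DC2.4, St3gal1 lay between -0.38 and 4.24 and passed under 5 of the 11 choices, St6gal1 lay between -0.44 and 4.18 and passed under 3, and St3gal2 lay between -2.97 and 1.65. With TGF-beta, St3gal1 lay between -0.84 and 0.47, St3gal2 between -0.50 and 0.82 and St6gal1 between -1.0 and 0.31. The median of the panel moved with them, between -1.32 and 1.58 in tumor against splenic DC1, so each member was also set against that median. A choice of reference wells shifts every gene alike, so this difference cannot change with it and is no test of stability. On this basis St3gal1 stood at 2.23 in splenic DC1 against unstimulated DC2.4 and at 2.21 in tumor DC1 against TGF-beta-treated DC2.4, above the panel median in both. St6gal1 stood at 2.15 in tumor DC1 against TGF-beta-treated DC2.4 and 1.19 in tumor against splenic DC1, but at 0.07 in splenic DC1 against unstimulated DC2.4. St3gal1 stood at -0.75 and St3gal2 at 0.33 in tumor against splenic DC1. With TGF-beta, St8sia4 stood at 0.73, St3gal2 at 0.02, St3gal1 at -0.32 and St6gal1 at -0.48. The panel median itself was -0.39 in tumor against splenic DC1, 0.29 with TGF-beta, 0.34 in splenic DC1 against unstimulated DC2.4 and -0.75 in tumor DC1 against TGF-beta-treated DC2.4.

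**Figure D3:**
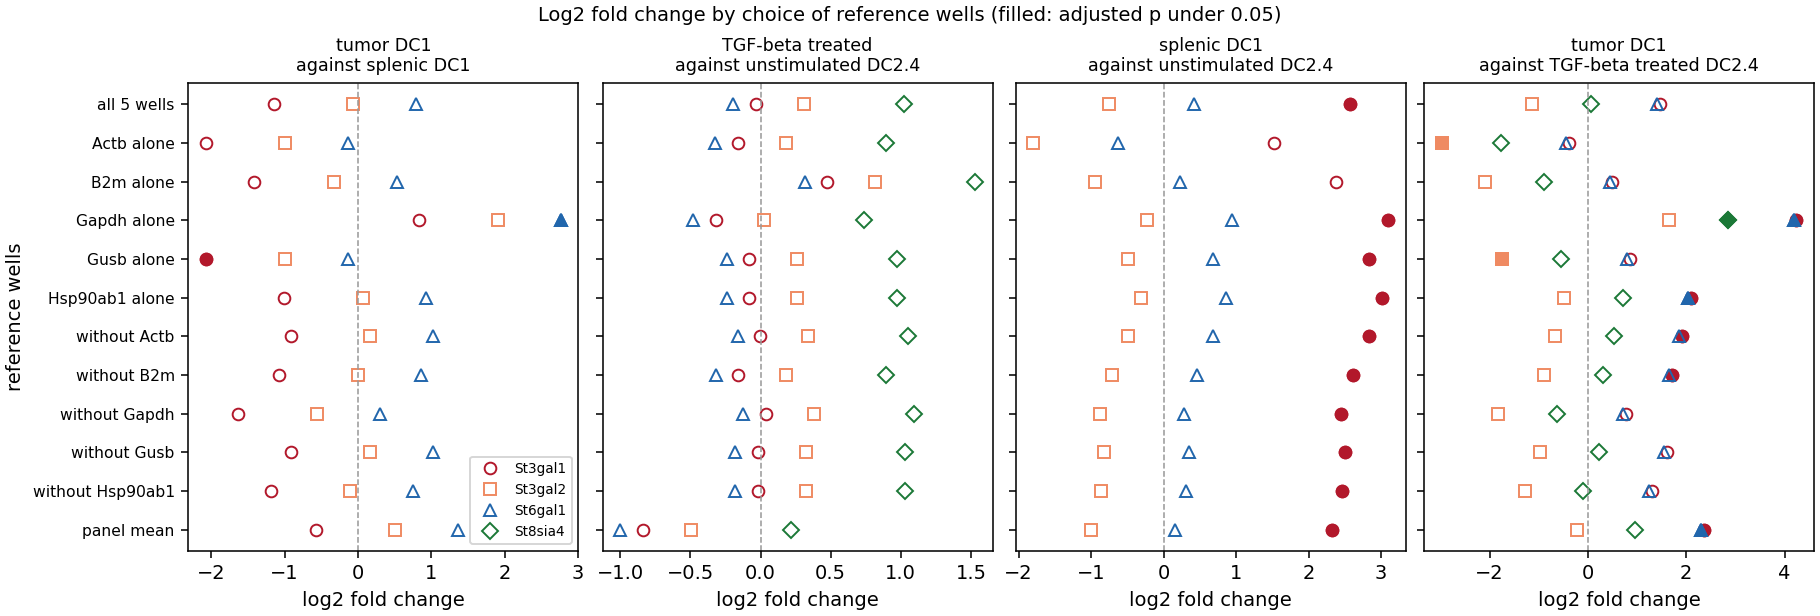
Log2 fold change of 4 sialyltransferases (x axis) under 12 choices of reference wells (rows), the top row being the mean of all 5 wells. Filled symbols have an adjusted p under 0.05. Splenic DC1 against unstimulated DC2.4 stays above 1.5 for St3gal1, whereas tumor against splenic DC1 changes sign for St3gal1, St3gal2 and St6gal1.

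The balance between linkage types was read within each sample, as the Ct of one member minus that of another, which uses no reference well. The zero of such a difference has no meaning, since primers may amplify unequally, and only its change between groups is described. St3gal1 over St6gal1, the alpha-2,3 against the alpha-2,6 enzyme, was -0.13 and 0.02 in tumor DC1 and 1.20 and 2.57 in splenic DC1. In the cell line it was -0.78 and 0.55 with TGF-beta and -1.13 and 0.58 without. Splenic DC1 thus stood above the other 3 groups, which overlapped one another. The change was -1.94 ± 0.69 (SE) between tumor and splenic DC1, 2.16 ± 1.10 between splenic DC1 and unstimulated DC2.4 and 0.16 ± 1.08 between TGF-beta-treated and unstimulated cells.

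St3gal1 over St3gal2, a balance inside the alpha-2,3 type, was 2.90 and 3.33 in tumor DC1, 3.66 and 4.73 in splenic DC1, -0.48 and 1.52 with TGF-beta and -0.08 and 1.82 in unstimulated DC2.4. All 4 DC1 samples lay above all 4 DC2.4 samples. The change was 3.33 ± 1.09 in splenic DC1 against unstimulated DC2.4, 2.59 ± 1.02 in tumor DC1 against TGF-beta-treated DC2.4 and -1.08 ± 0.58 in tumor against splenic DC1.

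St3gal2 over St6gal1 was -3.03 and -3.31 in tumor DC1, -2.46 and -2.16 in splenic DC1, -0.30 and -0.97 with TGF-beta and -1.04 and -1.24 in unstimulated DC2.4. The 4 groups did not overlap on this measure and ran from tumor DC1, the lowest, through splenic DC1 and unstimulated DC2.4 to TGF-beta-treated DC2.4. The place of tumor against splenic DC1 in this order holds only for the files as labelled, since the authors' deposited table gives a tumor over splenic change of 0.79, 0.80 and 0.75. The 2 DC2.4 groups were nearest at -0.97 and -1.04, a gap smaller than the difference between the 2 samples of either group. The change was -0.86 ± 0.21 in tumor against splenic DC1 and 0.50 ± 0.35 in TGF-beta-treated against unstimulated DC2.4. Although St3gal2 and St6gal1 each varied by over 1.5 between the splenic samples, their difference varied by 0.30.

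St6gal1 over St8sia4, the alpha-2,6 against the polysialic acid enzyme, was -1.61 and -1.81 in tumor DC1, -2.96 in splenic replicate 2, -3.29 and -2.81 with TGF-beta and -1.26 and -2.40 in unstimulated DC2.4. Both TGF-beta samples lay below both tumor and both unstimulated samples. The change was -1.21 ± 0.62 with TGF-beta and 1.33 ± 0.26 in tumor DC1 against TGF-beta-treated DC2.4.

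Groups that do not overlap on a difference of 2 wells are common on this panel. They made up 3 of 3 member pairs in tumor against splenic DC1, where 73.1% of all pairs of panel genes did not overlap. The same count was 2 of 6 with TGF-beta (53.1% of panel pairs), 3 of 3 in splenic DC1 against unstimulated DC2.4 (72.8%) and 6 of 10 in tumor DC1 against TGF-beta-treated DC2.4 (69.9%). These pair differences are given as a description, and an exact permutation test of 2 samples against 2 cannot give a two-sided p under 0.333. In tumor against splenic DC1 the member pairs changed by -1.94 (St3gal1 over St6gal1), -1.08 (St3gal1 over St3gal2) and -0.86 (St3gal2 over St6gal1), beside a median size of 1.10 over panel pairs. With TGF-beta the 2 pairs that did not overlap changed by -1.21 (St6gal1 over St8sia4) and 0.50 (St3gal2 over St6gal1), beside a median size of 1.17. In the authors' deposited table the tumor over splenic changes of these pairs had the opposite sign, at 1.81, 1.92 and 1.88 for St3gal1 over St6gal1, where the sample files gave -1.94. For TGF-beta over untreated, the table's St3gal2 over St6gal1 change of 0.73, 0.74 and 0.51 had the same sign as the files.

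**Figure D4:**
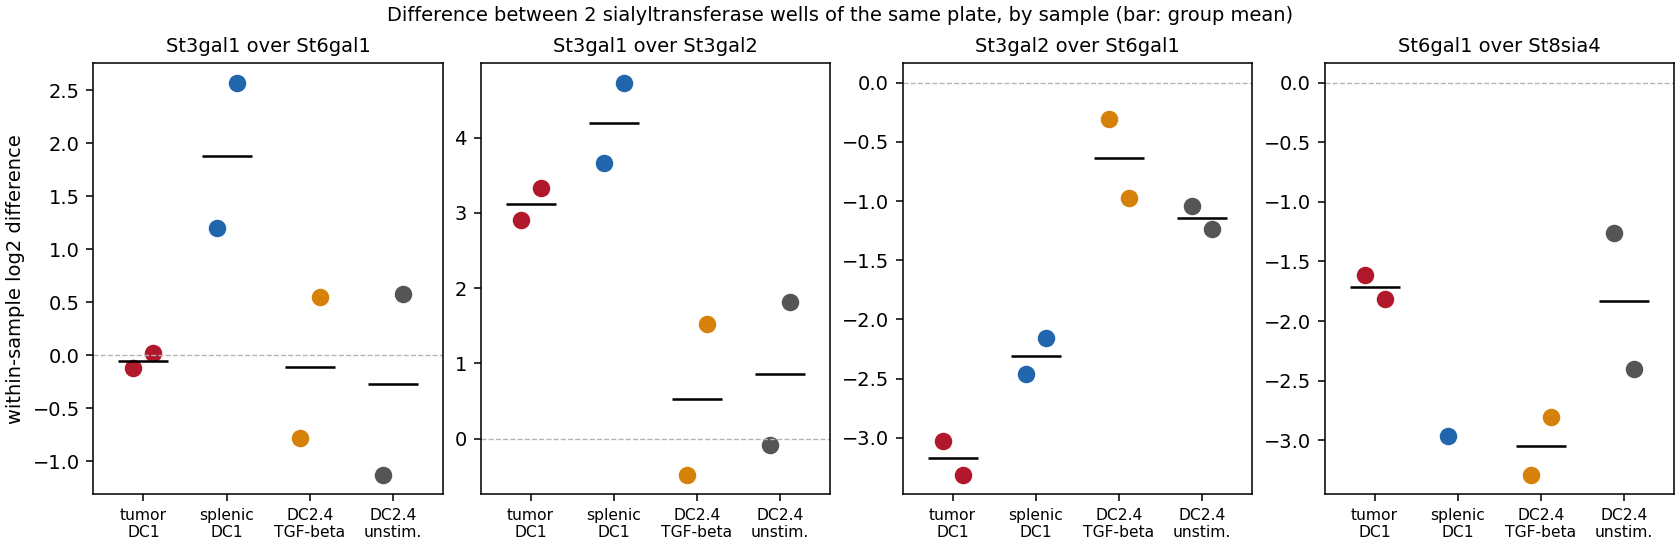
Within-sample log2 difference (Ct of the second gene minus Ct of the first) for 4 pairs of sialyltransferases, by sample (points) with group means (bars), each panel on its own scale. Splenic DC1 is highest for St3gal1 over St6gal1, at 1.20 and 2.57. The 4 groups do not overlap for St3gal2 over St6gal1, but the 2 DC2.4 groups come as near as -0.97 and -1.04. Splenic DC1 has 1 usable sample for St6gal1 over St8sia4.

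Other genes of sialic acid turnover and of the acceptor chains were read from short lists. St6galnac1, an alpha-2,6 enzyme of O-glycans, was not tested in any comparison. Sialidases remove sialic acid. With TGF-beta, 0 of 2 tested passed by limma, where 0% of the panel did, although both had an unadjusted p under 0.05 (Neu1 3.0 ± 0.87 and Neu3 -2.04 ± 0.54), where 15.9% of the panel had one. In tumor against splenic DC1, 1 of 3 was lower (Neu2, -7.56 ± 1.22, adjusted p = 0.015 by limma), where 8.06% of the panel passed. There 2 of 3 had an unadjusted p under 0.05, against 21% of the panel, the other being Neu1 (-2.57 ± 0.67, adjusted p = 0.062). The Neu2 well of tumor replicate 2 was blank and was held at Ct 35. Its adjusted p was 0.14 with late wells set to 40 and 0.30 in 1 fit over all 8 samples, and Neu2 did not pass in 5 of 23 alternatives. In tumor DC1 against TGF-beta-treated DC2.4, where 26.5% of the panel passed, 1 of 2 sialidases was lower (Neu1, -4.64 ± 0.78, adjusted p = 0.0042). Both had an unadjusted p under 0.05 there, against 35.3% of the panel, with Neu3 at 1.98 ± 0.70. In splenic DC1 against unstimulated DC2.4, 0 of 3 passed, where 9.38% of the panel did, and 1 had an unadjusted p under 0.05, against 25% of the panel.

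The core 1 genes C1galt1, C1galt1c1 and Gcnt1 build or branch the chain that St3gal1 and St3gal2 cap. In tumor DC1 against TGF-beta-treated DC2.4, 2 of 3 were lower, where 26.5% of the panel passed in either direction, C1galt1 by -3.26 ± 0.61 and Gcnt1 by -3.24 ± 0.93 (adjusted p = 0.0056 and 0.042 by limma). Gcnt1 did not pass in 14 of 25 alternatives and C1galt1 in 3 of 25. With the Gapdh well alone as reference these differences were -0.46 for Gcnt1 and -0.48 for C1galt1. In the other comparisons 0 of 3 passed by limma. The panel share passing was 0% with TGF-beta, 9.38% in splenic DC1 against unstimulated DC2.4 and 8.06% in tumor against splenic DC1. An unadjusted p under 0.05 was seen for 1 with TGF-beta (15.9% of the panel) and 1 in splenic DC1 against unstimulated DC2.4 (25%). It was seen for 0 in tumor against splenic DC1 (21%). In the test of the difference of effects 0 of 3 passed (16.4%) and 1 had an unadjusted p under 0.05 (24.6%).

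The galactosyltransferases B4galt1, B4galt2 and B4galt3 add the galactose that St6gal1 caps. B4galt2 was higher in splenic DC1 than in unstimulated DC2.4 (1 of 3 tested, 6.46 ± 1.17, adjusted p = 0.019, where 9.38% of the panel passed), but its adjusted p was 0.074 without unstimulated replicate 2 and 0.070 without splenic replicate 2. B4galt1 was lower in tumor DC1 than in TGF-beta-treated DC2.4 (1 of 2 tested, -5.04 ± 0.57, adjusted p = 0.0010, where 26.5% of the panel passed) and passed in each of the 25 alternatives. With TGF-beta 0 of 3 passed by limma (0% of the panel), and 1 had an unadjusted p under 0.05 (15.9% of the panel). In tumor against splenic DC1 0 of 2 passed (8.06% of the panel), and 1 had an unadjusted p under 0.05 (21%). In the test of the difference between the tumor and TGF-beta effects, 16.4% of the panel passed. Neu1 (-5.57 ± 1.06, adjusted p = 0.0021) passed as 1 of 2 sialidases tested. B4galt1 (-5.90 ± 0.86, adjusted p = 0.00059) passed as 1 of 2 galactosyltransferases tested. An unadjusted p under 0.05 was seen for 2 of 2 sialidases and 1 of 2 galactosyltransferases, against 24.6% of the panel. Each of the 8 differences of these lists that passed kept its sign in every alternative run. The median difference in tumor against splenic DC1 was -2.57 for the sialidases, -0.39 for the core 1 genes and -1.10 for the galactosyltransferases, beside -0.39 for the panel. In tumor DC1 against TGF-beta-treated DC2.4 it was -1.33, -3.24 and -3.10, beside -0.75 for the panel. With TGF-beta the 3 medians were 0.48, -0.05 and 2.36, beside 0.29, and in splenic DC1 against unstimulated DC2.4 they were 0.93, -1.12 and 0.86, beside 0.34.

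The panel genes whose relative level ran most like each member over the samples were found by Pearson's correlation. For St3gal1 they included Fut8 (r = 0.90) and Fut11 (0.89) over 8 samples and 56 candidate genes. Within the 4 DC2.4 samples alone the same correlations with St3gal1 were 0.81 for Fut8 and -0.96 for Fut11, so for Fut11 the likeness rests on the gap between DC1 and DC2.4. For St3gal2 they were Pomgnt1 (0.98), Pomt2 (0.93) and Mgat4b (0.93), and for St6gal1 Mgat1 (0.84), Man1b1 (0.82) and Man2b1 (0.81). For St8sia4, over 7 samples, they were Galnt1 (0.84), Man1b1 (0.76) and B3gnt8 (0.75). No such gene was sought for St8sia6, which was late in 3 of 7 samples. All these values share the reference wells of each sample, and the samples fall into DC1 and DC2.4 sets.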

How the data were processed

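Expression was measured with a commercial SYBR Green PCR plate. The authors deposited 1 file of Ct per sample, a log2 scale, and a series matrix of Ct minus the Actb Ct, also log2. Their deposited fold change table holds a ratio of test over control per gene, normalized to beta-actin per the file header. Baseline settings and software are not given in the sources used here.

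Plate positions were named through the series matrix. In the third splenic and second tumor files, values stood 1 well early and were moved, after which 76 of 86 and 75 of 75 wells fitted the relation to the other files within 0.002 cycles, against 0 before. The third file of each group equalled a constant times the mean of the other 2 (divided by 1.08 with TGF-beta and by 1.1 without, multiplied by 1.021 in DC1), in 75 to 80 wells per group, and was left out of the tests. Genes were left out where this relation broke or where splenic replicate 1 held doubtful values (wells G06 to G12): 11 genes in the TGF-beta comparison and 17 in the tumor comparison, St8sia4 and St8sia6 among the 17. Splenic against unstimulated cells were compared without St8sia4 and St8sia6 too. Members were kept despite these rules in the alternatives without splenic replicate 1 or with the doubtful wells used as deposited. In the tumor against TGF-beta comparison, St8sia4 and St8sia6 were fitted with splenic replicate 1 missing.

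Late (over 35) and blank wells were held at Ct 35, and genes late in more than 2 of the 4 samples compared were not tested. Two-sided tests on the levels used the moderated linear model of limma 3.58.1 under R 4.3.3, and p-values were adjusted by Benjamini-Hochberg over all genes tested (threshold 0.05). The TGF-beta and the tumor against splenic comparisons used their own 4 samples, and the others used all 8. Files were read with Python 3.11.15 and pandas 2.3.3, plots were drawn with matplotlib 3.10.9, and the fit was tested on simulated data. Alternatives changed the reference wells, late Ct, filter, variance model, samples fitted, source of values and samples left out.

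The genes named are the 5 members, the 3 genes most like each by Pearson's r (1 of them is not reported here), and members of 4 short lists. Members and lists were chosen with earlier results of these data known. No sequence was aligned.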

Additional observations from a re-analysis of the deposited data

Results flagged for a closer look

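The difference between the St3gal2 and St6gal1 wells moved in opposite directions in the 2 settings. It was lower in both tumor DC1 samples than in both splenic DC1 samples, by -0.86 on the log2 scale, and higher in both TGF-beta-treated DC2.4 samples than in both unstimulated samples, by 0.50. Groups also did not overlap in 73.1% of panel pairs in tumor against splenic DC1 and in 53.1% with TGF-beta. Both changes were smaller than the median size over panel pairs, 1.10 and 1.17. The DC2.4 groups came as near as -0.97 and -1.04. The difference between these changes was not tested. The authors' deposited table gives the opposite sign for the tumor change.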

How the results depend on the processing

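Of 456 values recomputed under alternatives for 19 results, 386 kept their direction and their side of the threshold, 45 changed sign, 20 passed the threshold when the reported value did not and 5 no longer passed; the cause was not tested. Values below are log2 differences. With the Actb well alone as reference, splenic DC1 against unstimulated DC2.4 was 1.53 for St3gal1 (no longer passing) and -0.63 for St6gal1, tumor against splenic St6gal1 was -0.13, and tumor DC1 against TGF-beta-treated DC2.4 was -0.38 for St3gal1, -2.97 for St3gal2 (passing), -0.44 for St6gal1 and -1.77 for St8sia4. With the B2m well alone, TGF-beta against unstimulated was 0.47 for St3gal1 and 0.31 for St6gal1, splenic against unstimulated St3gal1 was 2.38 (no longer passing), and tumor against TGF-beta St8sia4 was -0.89. With the Gapdh well alone, tumor against splenic was 0.83 for St3gal1, 1.90 for St3gal2 and 2.76 for St6gal1 (passing), tumor against TGF-beta was 4.24 for St3gal1, 4.18 for St6gal1 and 2.85 for St8sia4 (all passing) and 1.65 for St3gal2, and the difference of the tumor and TGF-beta effects was 1.15 for St3gal1 and 1.88 for St3gal2. With the Gusb well alone, tumor against splenic was -2.07 for St3gal1 (passing) and -0.13 for St6gal1, and tumor against TGF-beta was -1.74 for St3gal2 (passing) and -0.55 for St8sia4. With the Hsp90ab1 well alone, tumor against splenic St3gal2 was 0.073, and tumor against TGF-beta was 2.10 for St3gal1 and 2.04 for St6gal1 (both passing). With 4 reference wells, tumor against splenic St3gal2 was 0.16 without Actb and 0.16 without Gusb, TGF-beta against unstimulated St3gal1 was 0.037 without Gapdh, tumor against TGF-beta St3gal1 was 1.92 without Actb and 1.70 without B2m (both passing), and St8sia4 was -0.63 without Gapdh and -0.091 without Hsp90ab1. With the mean of the panel genes as reference, St3gal2 was -0.50 with TGF-beta and 0.51 in tumor against splenic DC1, tumor against TGF-beta was 2.36 for St3gal1 and 2.30 for St6gal1 (both passing), and the difference of effects was 0.038 for St3gal1 and 0.77 for St3gal2.

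With all 12 deposited files, tumor against splenic St3gal1 was -1.15 and tumor against TGF-beta was 1.26 for St3gal1 and -1.37 for St3gal2 (all passing), and -0.043 for St8sia4. In the deposited series matrix, which holds the unmoved wells, tumor against splenic DC1 was -2.61 for St3gal1, 1.79 for St3gal2 and 14.9 for St6gal1. That matrix holds -21.4 for St6gal1 in tumor replicate 2. Leaving out 1 sample gave, with TGF-beta, -0.37 to 0.31 for St3gal1, -0.46 to 1.08 for St3gal2, -0.71 to 0.32 for St6gal1 and -0.99 to 8.94 for St8sia6. It gave, in tumor against splenic DC1, -0.88 to 0.75 for St3gal2 and -0.17 to 1.76 for St6gal1. In splenic DC1 against unstimulated DC2.4 it gave 2.23 to 2.91 for St3gal1, passing in 5 of 8 fits, -1.57 to 0.061 for St3gal2 and -0.55 to 1.38 for St6gal1. In tumor DC1 against TGF-beta-treated DC2.4 it gave 1.23 to 1.69 for St3gal1, -0.61 to 0.75 for St8sia4 and -0.93 to 9.0 for St8sia6, and for the difference of effects -1.19 to 0.44 for St3gal2. St3gal1 in tumor against TGF-beta passed without either splenic sample (adjusted p = 0.048). A lone sample left in a group was assumed to vary like the others.

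Counts of panel genes past the threshold also moved: over the choices of reference wells from 1 to 38 in tumor against splenic DC1, from 4 to 17 in splenic against unstimulated, and from 11 to 40 in tumor against TGF-beta, and with all 12 files to 13, 21, 30 and 42 in the TGF-beta, tumor, splenic and tumor against TGF-beta comparisons. No paired analysis was possible because the labels give running sample numbers, none shared between groups. The limits are 2 measured samples per group, late wells of St8sia6, doubtful splenic wells, and the conflict over the direction of the DC1 comparison.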

Other observations

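St8sia2, the second polysialyltransferase of the panel, was looked at after its values were seen. Its Ct was 29.3 and 27.2 in TGF-beta-treated DC2.4, against 31.1 and 34.3 in unstimulated DC2.4. The relative level was -7.25 and -10.18 with TGF-beta, against -10.50 and -17.39 without, so both TGF-beta samples lay above both unstimulated samples. The nearest samples of the 2 groups, at -10.18 and -10.50, lay closer than the 2 samples of either group. Groups did not overlap in 39.1% of the panel genes tested there. The difference of 5.23 ± 2.75 did not pass the test (adjusted p = 0.55 by limma over 69 genes). In tumor DC1 both wells were over Ct 35, and the splenic replicate 1 well repeats the value of its neighbour St8sia3.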
